A study of Homo sapiens with 2 samples.

Results

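The MSI2 peaks of 6 genes that encode core parts of the human spliceosome are described: SF3B1, SF3B2, PRPF8, SNRNP200, U2AF1 and U2AF2. They were chosen by name, with earlier results of these data known. A peak was taken as theirs if it was listed under their Ensembl gene ID. All 6 carried peaks in both libraries, as did 63.1% of the gene IDs seen in either. They held 39 of the 25920 peaks of replicate 1 and 60 of the 25243 peaks of replicate 2, among 8801 gene IDs in all. The data are CLIP-seq of Musashi-2 (MSI2), an RNA-binding protein, from the human promyelocytic leukaemia cell line NB4. The method fixes protein to RNA in intact cells with ultraviolet light, pulls one protein down with an antibody and sequences the RNA that comes with it. Both libraries belonged to 1 group with the same labels: 25000000 NB4 cells per library, crosslinked on ice at 400 mJ per square centimetre and recovered with an anti-MSI2 antibody. Libraries of input, of a control antibody or without MSI2 were not analysed here, so the values show what was listed repeatably and cannot separate MSI2 binding from background. The labels do not say that the replicates were separate cultures, so their differences may be technical. No marker check of the cell type was made, because peak lists hold no RNA levels.

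The spliceosome removes introns from pre-mRNA and is rebuilt on each intron from small nuclear RNAs and their proteins. U2AF recognises the end of the intron, the U2 particle with its SF3b complex then takes the branch point, and the U5 proteins join the particle in which the cut is made. Musashi proteins are cytoplasmic regulators in the main, known for binding short motifs with a UAG core in the 3' untranslated regions of mRNAs. No genome sequence of build hg19 was used, so the peaks below are given by position and no motif was counted.

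Most peaks of these genes did not recur at the same place. Peaks of the libraries that had at least 1 nt in common on one strand were counted as shared. In replicate 1, 18 of the 39 peaks, or 46.2% (95% Wilson interval 31.6% to 61.4%), were shared, against 35.7% over all peaks of that list. In replicate 2, 22 of the 60 peaks, or 36.7% (25.6% to 49.3%), were shared, against 37.3% over all peaks. The intervals cover counting error only, and both contain the share of the whole list. They treat the peaks as independent and may be too narrow. The peaks come from 6 genes, some touch each other, and a peak can match more than 1 peak of the other list. Every match lay under the same gene ID, and no member peak overlapped a peak of another ID on its strand in its own list. A shared peak was present in 5 of the 6 genes and absent from PRPF8, where 71.9% of the 5552 gene IDs with peaks in both lists had one.

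**Figure D1:**
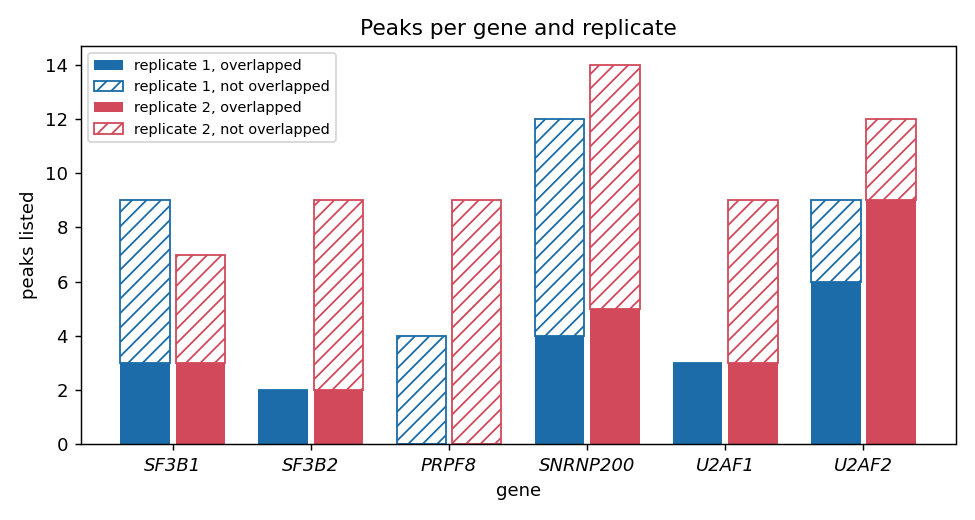
Number of peaks listed per gene (vertical axis) for the 6 genes, with replicate 1 in blue and replicate 2 in red. The filled part of each bar is the peaks overlapped in the other list and the hatched part the rest; PRPF8 has no filled part, and SF3B2 and U2AF1 have no hatched part in replicate 1.

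The tally of a peak is the closing number of its deposited name, which behaves like a number of reads although no header says so. The smallest in either list was 3. The tallies of the 6 genes summed to 293 in replicate 1 and 367 in replicate 2, or 0.188% and 0.275% of the tallies in those lists. The median tally of a member peak was 5 in each library, against 4 over the rest of each list. Where peaks of the libraries overlapped they were joined into 1 site, which gave 76 sites, of which 17 held peaks of both libraries, 21 of replicate 1 alone and 38 of replicate 2 alone. Total RNA of these genes was not measured, so peak counts and tallies are not compared with transcript level. They were also not divided by transcript length.

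U2AF2, the large U2AF subunit that binds the pyrimidine tract before the end of the intron, had the highest summed tally of the 6 genes and the most sites in both libraries. ENSG00000063244.8 lies on the plus strand of chromosome 19, and its peaks ran from 56172457 to 56186016 (hg19, here and below), a span of 13.6 kb. It held 9 peaks in replicate 1, of which 6 were shared, and 12 peaks in replicate 2, of which 9 were shared. The tallies summed to 87 in replicate 1, higher than in 96.4% of the gene IDs of that list, and to 132 in replicate 2, higher than in 99.1%. Shared peaks held 82.8% and 83.3% of these sums.

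The strongest U2AF2 sites stood side by side at the 3' end of the span. At 56185621 to 56185723, replicate 1 listed 1 peak with a tally of 22 and replicate 2 listed a touching pair with tallies of 19 and 12. At 56185874 to 56186016, replicate 1 listed 1 peak with a tally of 20, and replicate 2 listed peaks with tallies of 25 and 18. What replicate 1 listed as 1 peak was thus listed as a pair in replicate 2 at both sites, so that peak counts differ where the covered stretch is much the same. A smaller site just before them, at 56185519 to 56185547, had a tally of 7 in each library. Upstream, at 56180868 to 56181059, replicate 1 had a tally of 11 and replicate 2 had tallies of 10 and 8 at the edges of that peak. The remaining shared sites lay farther upstream. One at 56180036 to 56180048, with tallies of 4 and 6 in replicates 1 and 2, started at the same base in both lists, and one at 56173947 to 56173985 had tallies of 8 and 5. The 6 peaks not shared had tallies of 3 to 8. Of the 3 in replicate 2, the nearest lay 70 nt from a peak of replicate 1 and the farthest 407 nt.

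U2AF1, the small U2AF subunit that contacts the AG at the end of the intron, held the single strongest peak among the 6 genes. ENSG00000160201.7 lies on the minus strand of chromosome 21, and its peaks ran from 44513069 to 44527631, over 14.6 kb. A pair of adjoining sites lay at its 3' end. The stronger, at 44513121 to 44513225, had a tally of 31 in replicate 1 (deposited p 1.62e-29) and of 16 in replicate 2 (deposited p 3.08e-13). A lower p was listed for 0.170% of the peaks of replicate 1 and 1.59% of those of replicate 2. The one next to it, at 44513069 to 44513120, had tallies of 15 and 8. Another shared site, at 44515582 to 44515636, had tallies of 5 and 3. At all 3 sites the tally was lower in replicate 2 than in replicate 1, at ratios of 0.516 to 0.600.

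The summed tally of U2AF1 was nonetheless close between the libraries, at 51 in replicate 1 and 49 in replicate 2. Replicate 1 placed all of it in 3 shared peaks. Replicate 2 placed 55.1% in its 3 shared peaks and the rest in 6 others with tallies of 3 to 6. The 5'-most of these sets the 5' end of the span. The peaks of replicate 2 there, a touching pair at 44527595 to 44527601 and 44527602 to 44527631, each had a tally of 3, the lowest that either list holds.

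SF3B1, the largest subunit of the SF3b complex, holds the branch point helix within the U2 particle. ENSG00000115524.10 lies on the minus strand of chromosome 2, and its peaks ran from 198256719 to 198285269, over 28.6 kb. It had 9 peaks in replicate 1 and 7 in replicate 2, with 3 shared in each. Its main site, at the 3' end of the span from 198256719 to 198256982, held a touching pair of peaks with tallies of 9 and 11 in replicate 1, and peaks with tallies of 9 and 5 in replicate 2. The other shared site, at 198267284 to 198267354, lay 10.6 kb from that end and had a tally of 6 in each library. Its short inner intervals, as deposited, were centred 5 nt apart. The remaining SF3B1 peaks were seen once: 6 in replicate 1, all with tallies of 3 or 4, and 4 in replicate 2 with tallies of 3 to 6. One of those in replicate 1, at 198262792 to 198262826, lay 421 nt from one of replicate 2. Replicate 1 listed 4 of its 6 between 198281627 and 198285269, where replicate 2 listed none. The 5'-most of these sets the 5' end of the span. With tallies of 3 or 4, they are too few in reads to call these sites absent from replicate 2.

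SF3B2, another SF3b subunit, which contacts the pre-mRNA near the branch point, differed most between the libraries in its number of peaks. ENSG00000087365.10 lies on the plus strand of chromosome 11, and its peaks ran from 65820553 to 65836361, over 15.8 kb. Replicate 1 listed 2 peaks and replicate 2 listed 9, a log2 ratio of replicate 2 over replicate 1 of 2.17. A ratio of 4 times or more in that direction was seen in 3.28% of the gene IDs with peaks in both lists. The median log2 ratio of those IDs was 0.0. By summed tally SF3B2 stood out less. Its tallies added up to 15 for replicate 1 against 45 for replicate 2, or 1.585 on the log2 scale, the same as for PRPF8. Of those IDs, 14.4% differed at least as far in summed tally, either way, against 3.58% in number of peaks. Chromosome 11 as a whole had 1455 peaks in replicate 1 and 1544 in replicate 2, a ratio of 1.06.

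Both SF3B2 peaks of replicate 1 were found again. At 65829155 to 65829213 the tally was 5 in each library. At 65836242 to 65836361, the 3'-most site, it was 10 in replicate 1 and 5 in replicate 2, where the peak covered 48 nt of the 120 nt of replicate 1. The other 7 peaks of replicate 2 all lay 5' of these sites, between 65820553 and 65828203, with tallies of 3 to 9. The strongest of them, at 65822544 to 65822603, had a tally of 9 and a deposited p of 1.90e-06, and one at 65820553 to 65820576 had a tally of 7. These were picked out after their values were seen. The nearest of these 7 peaks to a peak of replicate 1 was 954 nt away, so none was a near miss of the overlap rule. Running numbers within the names skipped 1 value in replicate 1 and 4 in replicate 2, and what the skipped numbers stood for is not stated. Values were also skipped for SF3B1 (2 and 1), PRPF8 (1 and 3) and SNRNP200 (2 and 0), but not for U2AF1 or U2AF2.

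SNRNP200 is the U5 helicase that unwinds the paired U4 and U6 RNAs when the spliceosome is activated. ENSG00000144028.10 lies on the minus strand of chromosome 2, and its peaks ran from 96940486 to 96966759, over 26.3 kb. It had more peaks than any of the other 5 genes, with 12 in replicate 1 and 14 in replicate 2, of which 4 and 5 were shared. Its strongest site, at the 3' end of the span from 96940486 to 96940547, was nearly the same in both libraries. The tally there was 19 in replicate 1, with a p of 4.45e-15, and 18 in replicate 2, with a p of 5.66e-15, and the centres of the inner intervals were 0 nt apart. A neighbour at 96940659 to 96940718 had tallies of 7 and 5.

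Another pair of shared SNRNP200 sites lay in the middle of the span, 14.3 and 14.5 kb from its 3' end. At 96954816 to 96954859 replicate 1 had 1 peak with a tally of 8, and replicate 2 had a touching pair with tallies of 3 and 5. At 96954965 to 96954988 the tallies were 6 and 4, and the peaks of both lists had their 3' end at the same base, 96954965. SNRNP200 also held the one peak among the 6 genes with a tally of 10 or more that was not found again. It lay at 96953192 to 96953304 in replicate 1, with a tally of 10, and the share of peaks at that tally or above that were not overlapped was 12.9% over the list. The other 16 unshared peaks of SNRNP200 had tallies of 3 to 7 and were spread over the whole span.

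PRPF8, the large U5 protein that forms the scaffold of the catalytic centre, had no shared peak. ENSG00000174231.12 lies on the minus strand of chromosome 17, and its peaks ran from 1553961 to 1585466, the longest span of the 6 genes at 31.5 kb. Replicate 1 listed 4 peaks with tallies of 3, 3, 3 and 4. Replicate 2 listed 9 peaks with tallies of 3 to 6. The gene's highest tally, at 4 in replicate 1, exceeded that of 23.8% of the gene IDs in that list, while its 6 in replicate 2 exceeded that of 60.3%. The strongest PRPF8 peak by p, at 1580944 to 1580990 in replicate 2, had a tally of 6 and a deposited p of 0.000189, with 15.99% of that list stronger.

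The PRPF8 peaks that came closest between the libraries were at 1565032 to 1565061 in replicate 1, with a tally of 3, and at 1564918 to 1564984 in replicate 2, with a tally of 6. They were 47 nt apart, and counted as shared only once each peak was extended by 100 nt. Replicate 2 alone listed peaks between 1580944 and 1585466, 6 in all. The 5'-most of them sets the 5' end of the span, which is not an annotated gene end. Having many peaks and none in common was uncommon: of 552 gene IDs with 4 or more peaks in replicate 1 and 9 or more in replicate 2, 2.17% had no shared peak. Of the 10 such IDs with no tally above 4 in replicate 1 or above 6 in replicate 2, 40.0% had none, PRPF8 included. Both thresholds were set to PRPF8's own values after these were seen.

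**Figure D2:**
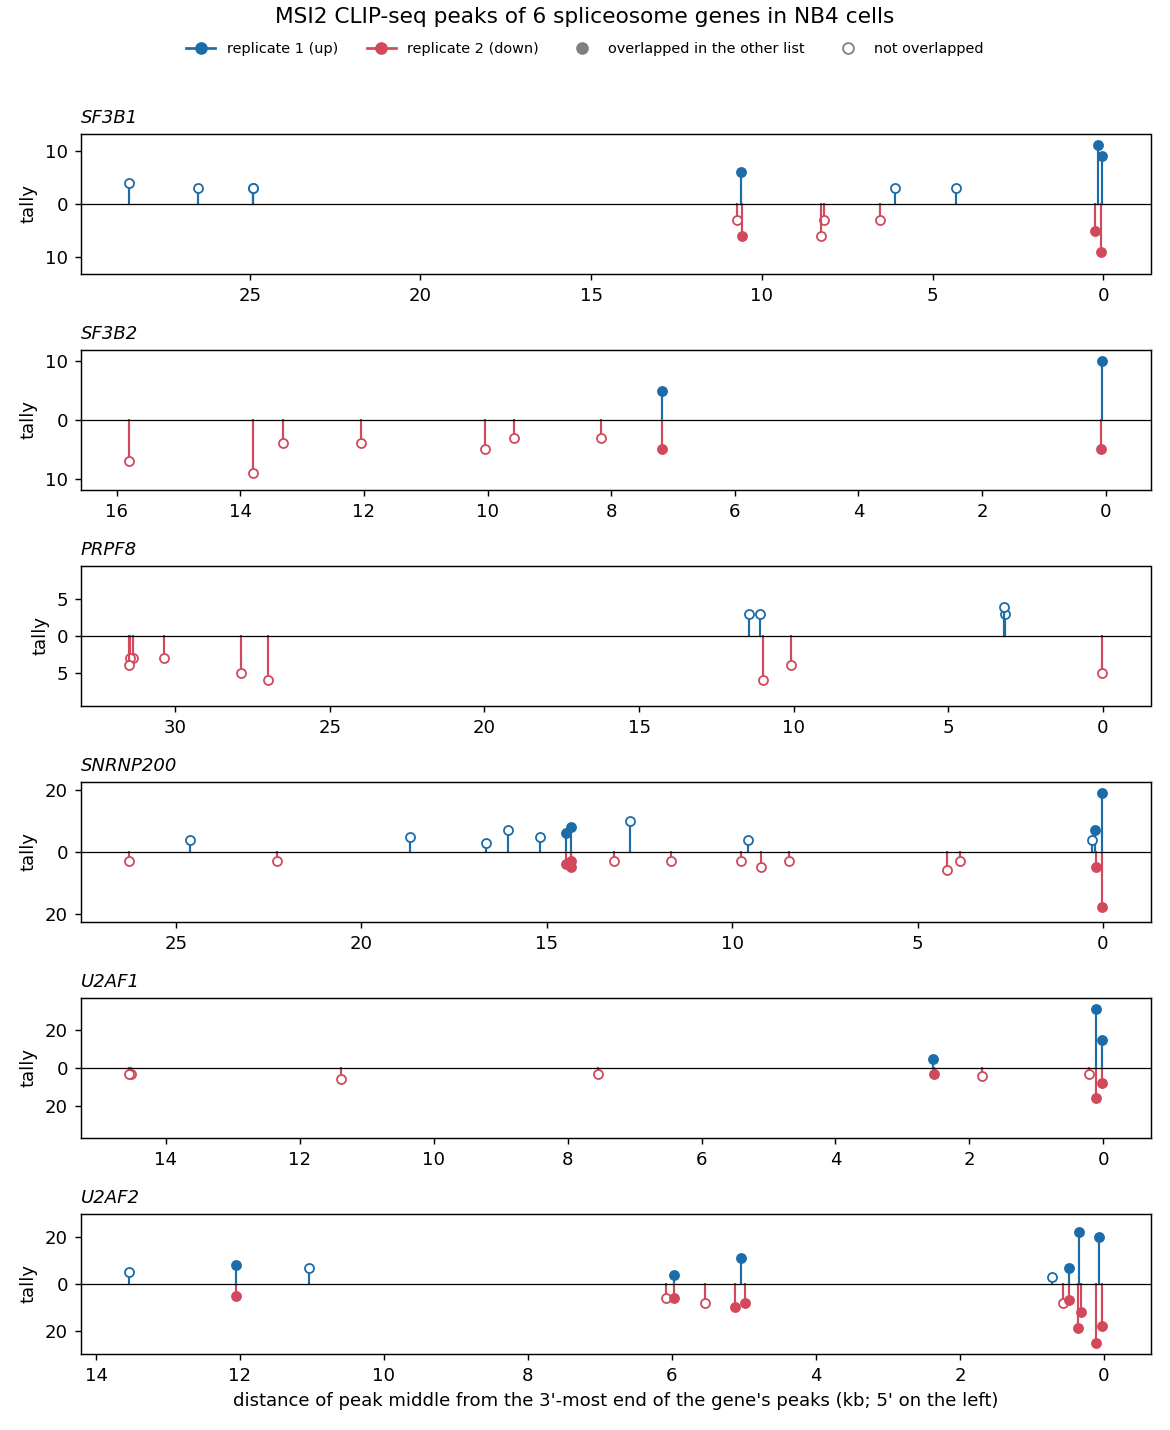
Every peak of the 6 genes at the distance of its middle from the 3'-most end of the gene's peaks (horizontal axis, kb, with 5' on the left), and its tally (vertical axis), with replicate 1 drawn upward in blue and replicate 2 downward in red. Filled points are overlapped in the other list and open points are not; the tallest filled points of SF3B1, SNRNP200, U2AF1 and U2AF2 stand at the right-hand end in both libraries, and PRPF8 has open points only.

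The 17 sites of both libraries lay partly at the 3' end of the span and partly along the rest of it. Of the 14 sites within 1 kb of the 3'-most peak end, 9 held peaks of both libraries, or 64.3%, against 30.0% of such sites over the gene IDs with peaks in both lists and a span of 10 kb or more. Of the 62 sites farther away, 8 did, or 12.9%, against 18.6% over those gene IDs. The 9 sites came from U2AF2, U2AF1, SNRNP200, SF3B1 and SF3B2, and the 3'-most site of PRPF8 was seen in replicate 2 alone. These shares were described and not tested. They were not matched for tally, with which the share found again rises. In the rest of the replicate 1 list, 12.0% of peaks with a tally of 3 were shared and 87.1% of those with 10 or more. The part of tally in the difference at the 3' end was not tested. In the median over the 6 genes, 52.1% of a gene's tally lay within that last 1 kb in replicate 1 and 37.2% in replicate 2. Over all gene IDs whose peaks span 10 kb or more, the medians were 34.8% and 30.8%. The interquartile ranges of single gene IDs were 15.0% to 58.3% and 7.21% to 54.5%. Both medians of the 6 genes lay inside these ranges. A median over 6 genes varies less than the value of a single gene, so the ranges cannot show whether the 6 genes were ordinary. The share varied from gene to gene. For U2AF1 it was 90.2% in replicate 1 and 55.1% in replicate 2, for U2AF2 59.8% and 67.4%, for SF3B1 44.4% and 40.0%, and for SNRNP200 36.6% and 34.3%. It was 66.7% and 11.1% for SF3B2, and 0.0% and 12.8% for PRPF8. The span ends where the peaks end, so at least 1 peak falls in the last 1 kb by construction. Whether a site lies in an exon, an intron or an untranslated region was not analysed here.

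Sites were counted as found in both libraries because their peaks overlap, so close positions are partly set by that choice. The inner intervals of the strongest peaks were centred a median of 6 nt apart over the 17 sites, and a median of 6 nt over the 8989 such sites of all gene IDs. They were within 10 nt at 11 of the 17 sites, or 64.7%, against 66.9% over all. The summed tally was higher in replicate 1 at 9 sites, higher in replicate 2 at 4 and equal at 4. The log2 ratio of replicate 2 over replicate 1 had a median of -0.08 and ran from -1.0, at the 3' site of SF3B2, to 1.10, at the 3' site of U2AF2. All 4 sites that were higher in replicate 2 belonged to U2AF2. Chromosome 19, which holds U2AF2, had 1028 peaks in replicate 1 and 1488 in replicate 2, a ratio of 1.45, while chromosome 21, which holds U2AF1, had a ratio of 0.988 and chromosome 2 one of 0.860. The part of this difference between libraries in the U2AF2 values was not tested.

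**Figure D3:**
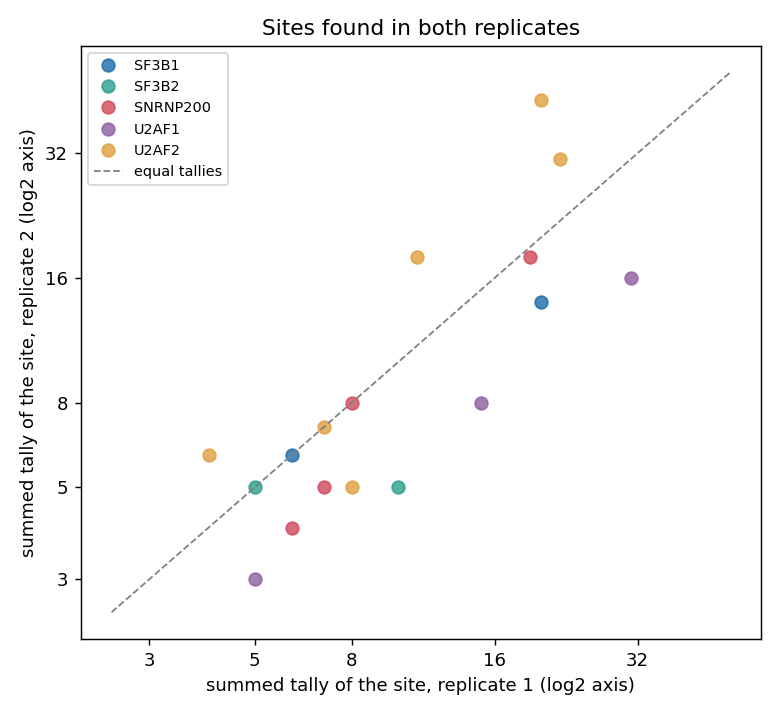
Summed tally of each of the 17 sites found in both libraries, with replicate 1 on the horizontal and replicate 2 on the vertical axis (both log2 axes), coloured by gene, and a dashed line where the tallies are equal. The 3 U2AF1 sites lie below the line, 4 of the 6 U2AF2 sites lie above it, and PRPF8 has no point.

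Whether a peak of these genes was found again went with its tally, as over the rest of the lists. None of the 10 member peaks with a tally of 3 was shared in replicate 1, against 12.0% in the rest of that list. A rough upper bound, 3 divided by the number of peaks and not a Wilson interval, allows a share of up to 30%. In replicate 2, 2 of 21 were shared, against 15.6%. With a tally of 5 to 9, 9 of 14 were shared in replicate 1, or 64.3%, against 47.6% in the rest of the list. In replicate 2 it was 12 of 26, or 46.2%, against 57.4%, so that the members lay above the rest in one library and below it in the other. With a tally of 10 or more, 8 of 9 were shared in replicate 1, against 87.1%, and 7 of 7 in replicate 2, against 89.4%. Of the unshared member peaks, 15 of 21 in replicate 1 had a tally of 3 or 4, or 71.4%, the same as in the rest of that list, and 24 of 38 did in replicate 2, or 63.2%, against 80.4%. More than 1 kb from any peak of the same gene in the other library lay 13 of the 21, or 61.9%, and 25 of the 38, or 65.8%. Over the unshared peaks of other gene IDs with peaks in both lists, these shares were 51.0% and 52.0%. Those IDs were taken at any span, without the lower limit of 10 kb used for the 3' end. A short span cannot hold a gap of over 1 kb, so these shares are not a like comparison.

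**Figure D4:**
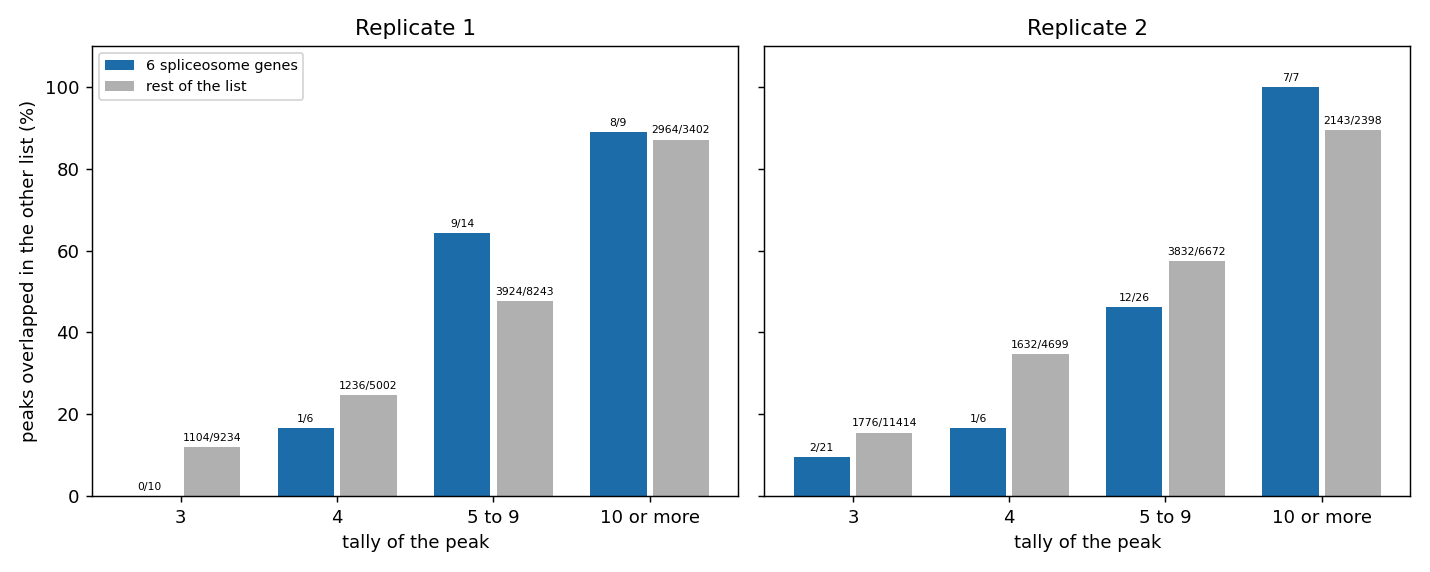
Share of peaks overlapped in the other list (vertical axis, percent) by tally class (horizontal axis), for replicate 1 on the left and replicate 2 on the right, with the 6 genes in blue and the rest of the list in grey. Numbers over the bars are shared peaks over all peaks of the class; the share climbs with tally in all 4 sets.

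In number of peaks and summed tally over both libraries, some other gene IDs were close to the members. SF3B1, with 9 and 7 peaks and summed tallies of 45 and 35, was nearest to ENSG00000084754, with 9 and 7 peaks and summed tallies of 45 and 38. SNRNP200, with 12 and 14 peaks and summed tallies of 82 and 67, was nearest to ENSG00000105939, with 12 and 13 peaks and summed tallies of 79 and 70. Likeness was the Euclidean distance over the log2(1 + value) of these 4 values from 2 libraries, and came to 0.116 and 0.129. The nearest IDs of the other 4 genes lay at distances of 0.152 for PRPF8, 0.160 for U2AF2, 0.345 for U2AF1 and 0.367 for SF3B2. The files do not pair these IDs with names.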

How the data were processed

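The deposited files are 1 peak list per library, 2 libraries in 1 group. The reads were handled with cutadapt, STAR 2.3.0e and Bowtie 1.0.0 on build hg19, per the submitters' processing notes. The list names record poly(A) and adapter trimming and removal of duplicate reads. For the peak caller, a name was not given in the sources used here. With each peak the authors deposited a p-value, used here to rank and filter the peaks of one list. The tally closes the deposited name. Library depth is unknown. Tallies summed to 155598 and 133644 over the called peaks, and removal of duplicates without a stated molecular identifier can cap it.

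Positions were rewritten to count from 1. Overlap, sites, spans and Wilson intervals were computed with Python 3.11.15, NumPy 2.4.6, pandas 2.3.3 and SciPy 1.17.1, and the figures were drawn with matplotlib 3.10.9. The overlap step was tested on simulated data with known pairs. With 1 group and no control there is no contrast, so no test was run. The members, lists and alternatives were chosen with earlier results of these data known. Sites named in full are shared pairs with a smaller tally of 5 or more, up to 4 per gene, and unshared peaks with a tally of 10 or more; weaker ones were named after their values were seen. A list of 53 other spliceosome genes was not analysed, because the RefSeq table used paired 0 of them with an Ensembl ID. Member names follow the gene IDs they were chosen by. No peak sequence was read.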

Additional observations from a re-analysis of the deposited data

How the results depend on the processing

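The 6 genes had 18 shared peaks in replicate 1 and 22 in replicate 2. Over 8 alternatives these counts ran from 5 to 22 and from 7 to 28. They moved by over 1.5 times with the strongest 10% of each list by p, to 5 and 7, out of 6 and 8 member peaks left by construction. A reciprocal overlap of 50% gave 14 in replicate 2, of which U2AF2 held 4 in place of 9. The shares of member peaks stood above those of the whole list in replicate 1 under all 8 alternatives. In replicate 2 they were above it with the stronger 50% and strongest 10% by p and below it under the other 6. The number of member peaks, 99 over both lists, was 63 with the stronger 50%, 14 with the strongest 10% and 56 with tallies of 5 or more, by construction, and was 39 to 60 with 1 replicate left out. Shared counts cannot be had from 1 replicate. Gene by gene, 82 of 96 recomputed counts stayed within 1.5 times, 2 were higher and 12 lower. Some of the 82 could not have moved, so their number does not measure stability. Requiring the same gene ID changed no count, because every match already lay under the same ID. PRPF8's 0 could not change under a stricter overlap or with peaks removed. The counts per gene for replicate 2 were added after seeing the data. The 2 higher ones were PRPF8's, with 1 shared peak in each list once peaks were extended by 100 nt, against 0 as reported. No paired analysis was possible because there is only 1 group. Position in annotated genes, sequence windows and the other spliceosome genes were not run. Peaks with tallies of 3 or 4 are too few in reads to say whether a site was absent from the other library.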
